A study of Mus musculus with 18 samples.

Results

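Clca1, Aoc1, Ltf, Muc1, Muc4, Lcn2, C3, Pigr, Saa3 and Saal1 are genes of uterine secretion, mucosal defence and the acute-phase response, and their differential m6A peaks were examined in the uterus of pregnant mice given LPS with or without melatonin. The 10 genes were chosen by their log10 likelihood ratios in the deposited peak tables and by what they are known to do in epithelium, with those values known, so the ratios below are a description and no test was made on them. By the gene assigned to a peak or named in its annotation, the genes had 62 of the 41084 peaks in the 4 tables. A further 11 peaks lay on one of these genes but were assigned to a neighbour, and they are named as such where they appear.

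Female ICR mice (8 weeks old, wild type) were studied on day 5 of pregnancy under 3 treatments. All injections were intraperitoneal. The Veh mice received vehicle daily on days 1 to 4, and the LPS mice also received LPS at 0.5 mg/kg on days 3 and 4. The Mel+LPS mice received melatonin at 10 mg/kg, dissolved in saline containing ethanol, in place of the daily vehicle. In these mice LPS followed melatonin after 30 min on days 3 and 4. RNA of the whole uterus from 3 replicates per treatment was sequenced before (input) and after pulldown with an m6A antibody, 18 libraries in all. There are 4 deposited peak tables on the GRCm38 genome, 1 for each direction of LPS vs Veh and of Mel+LPS vs LPS. LPS is an outer membrane component of Gram-negative bacteria, and melatonin is a hormone of the pineal gland.

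Each peak has 1 log10 likelihood ratio per comparison, a number that grows as the reads of both treatments become harder to explain by 1 common level. It is a measure of evidence and not a fold change, it also grows with sequencing depth, and it has no value per replicate, so the values below carry no replicate error and the depth behind them is unknown. Of the table with peaks down in LPS, chromosomes 1 to 9 were read, where 8 of the 10 genes lie. Muc4 (chromosome 16) and C3 (chromosome 17) could therefore not be assessed as down in LPS. How the input reads and the replicates entered the comparison is not stated in the sources used here, so a change in the amount of an RNA and a change in its methylation cannot be told apart from these tables. In RNA of a whole organ, fewer cells of a type and less RNA per cell cannot be told apart either.

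m6A is the most abundant internal modification of mRNA. The METTL3 and METTL14 complex places it at DRACH sites (the first base is any but C, the second is a purine, then A and C follow, and the last base is any but G), often in long exons and near stop codons, and reader proteins that bind it affect the stability and translation of the RNA. The uterine epithelium secretes mucins, iron-binding proteins, complement and antimicrobial proteins into the lumen, and many of these genes respond to estrogen and to bacterial products. Acute-phase proteins are those whose synthesis changes quickly in inflammation.

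The genes lie at the following places on GRCm38 by RefSeq. The secretory enzymes and iron-binding proteins are Clca1 (gene 23844, chr3:145004537-145032776, minus strand), Aoc1 (gene 76507, chr6:48895255-48909188, plus strand), Ltf (gene 17002, chr9:111019292-111042766, plus strand) and Lcn2 (gene 16819, chr2:32384637-32387739, minus strand). The mucins and the immunoglobulin receptor are Muc1 (gene 17829, chr3:89229056-89233381, plus strand), Muc4 (gene 140474, chr16:32735886-32782391, plus strand) and Pigr (gene 18703, chr1:130826684-130852249, plus strand). The complement and acute-phase genes are C3 (gene 12266, chr17:57203967-57228136, minus strand) and Saa3 (gene 20210, chr7:46711998-46719615, minus strand), with the neighbour Saal1 (gene 78935, chr7:46686108-46710690, minus strand).

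Sequences that some of the peaks cover or touch are given below, 5′ to 3′ on the transcript strand of GENCODE release M21 (GRCm38), with DRACH sites in capitals. Exon 13 of Clca1 (chr3:145005880-145006116, minus strand) is touched by the peak with the highest ratio of the table down in LPS. The exon 2 stretch of Aoc1 (chr6:48905747-48906026, plus strand) is 1 whole peak down in LPS, and the coding part of its exon 5 (chr6:48908567-48908830, plus strand) is partly covered by peaks down in LPS and up in Mel+LPS. The coding part of exon 4 of Saa3 (chr7:46712129-46712264, minus strand) is covered in part by a peak that the table assigns to Saal1. Exon 2 of Lcn2 (chr2:32387028-32387164, minus strand) and exon 37 of C3 (chr17:57205656-57205745, minus strand) are each touched by overlapping peaks of both comparisons. Most of each peak lies outside the exon, with 73 of 244 and 54 of 179 bases on it for Lcn2. For C3, 38 of 212 and 29 of 190 bases lie on it.
Clca1 exon 13: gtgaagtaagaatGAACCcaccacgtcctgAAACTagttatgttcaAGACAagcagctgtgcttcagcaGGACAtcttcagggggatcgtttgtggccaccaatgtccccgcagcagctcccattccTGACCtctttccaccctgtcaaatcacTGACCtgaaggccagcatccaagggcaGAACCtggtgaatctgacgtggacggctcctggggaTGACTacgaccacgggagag
Aoc1 exon 2 peak: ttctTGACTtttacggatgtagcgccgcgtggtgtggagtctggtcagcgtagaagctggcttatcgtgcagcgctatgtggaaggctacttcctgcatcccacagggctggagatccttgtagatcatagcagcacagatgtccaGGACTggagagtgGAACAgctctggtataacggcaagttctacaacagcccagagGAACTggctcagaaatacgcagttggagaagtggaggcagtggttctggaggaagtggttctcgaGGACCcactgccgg
Aoc1 exon 5, coding part: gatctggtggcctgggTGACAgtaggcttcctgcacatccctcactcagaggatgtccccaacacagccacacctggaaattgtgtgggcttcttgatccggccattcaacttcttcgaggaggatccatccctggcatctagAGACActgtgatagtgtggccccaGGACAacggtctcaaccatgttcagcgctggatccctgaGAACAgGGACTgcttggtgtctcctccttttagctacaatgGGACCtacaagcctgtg
Saa3 exon 4, coding part: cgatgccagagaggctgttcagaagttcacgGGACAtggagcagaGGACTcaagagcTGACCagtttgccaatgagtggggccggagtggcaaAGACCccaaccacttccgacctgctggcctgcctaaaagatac
Lcn2 exon 2: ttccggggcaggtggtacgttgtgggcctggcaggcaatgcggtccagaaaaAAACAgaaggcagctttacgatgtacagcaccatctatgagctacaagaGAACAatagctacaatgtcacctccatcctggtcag
C3 exon 37: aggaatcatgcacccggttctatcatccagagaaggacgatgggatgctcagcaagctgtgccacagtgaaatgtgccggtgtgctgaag

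In LPS vs Veh, 6 of the 8 assessed genes had a peak that was lower in LPS, namely Clca1, Aoc1, Ltf, Muc1, Lcn2 and Pigr, and 3 of 10 had a peak that was higher, namely C3, Saa3 and Saal1. Nothing is read from the overlap of the 2 lists, since the share of all genes in both was not counted. C3 could not be assessed as down in LPS, and Saal1 held peaks down in LPS by position (1.43 and 1.60). Among all genes with a peak in any table, 50.4% of 10187 on chromosomes 1 to 9 had a peak down in LPS and 51.1% of 18499 had a peak up in LPS, counted in the same way. In Mel+LPS vs LPS, 3 of 10 genes had a higher peak (Aoc1, Muc4 and Pigr, against 54.8% of all genes) and 5 of 10 had a lower one (Ltf, Muc1, Lcn2, C3 and Saal1, against 43.3%). Because the genes were chosen with these values known, nothing is read from their counts beside those of all genes.
The ratios are a description only, since Clca1, Aoc1 and Saal1 were chosen by these same values, and nothing is read from differences between the medians. The 30 peaks down in LPS had a median log10 likelihood ratio of 18.1, against 2.65 for all 6259 peaks of that table, and 20 of them were above its 90th percentile. Of the 30, 11 were on Clca1 and 4 on Aoc1, with medians of 104 and 98.5. By position, the medians down in LPS were 18.1 for Lcn2, 5.51 for Muc1, 4.34 for Ltf and 2.29 for Pigr. The 17 peaks up in LPS had a median of 3.0 (all peaks, 2.88). In Mel+LPS vs LPS, the 6 higher peaks had a median of 6.11 (all peaks, 2.17), and the 9 lower peaks had a median of 1.93 (all peaks, 3.09), with values from 1.26 to 3.01 and none above the 90th percentile.

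**Figure D1:**
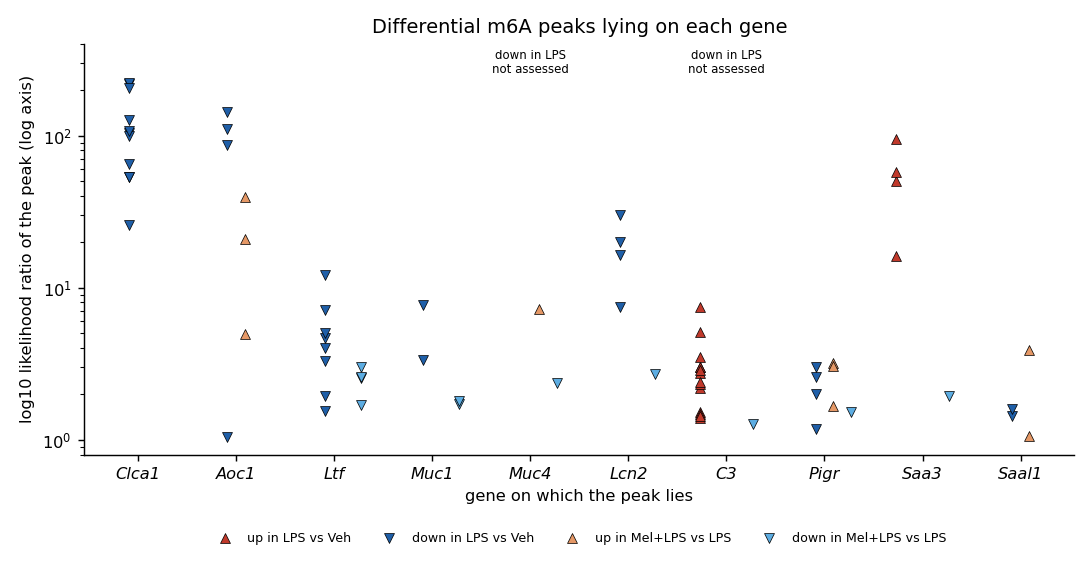
Log10 likelihood ratio (log axis) of every differential peak that lies on each of the 10 genes, by position and not by assignment; the Saa3 peak down in Mel+LPS is placed by its overlap with exon 4. Symbols give the table: Clca1 has only peaks down in LPS vs Veh, all at 25.7 or above, Saa3 has 4 peaks up in LPS vs Veh at 16.1 to 94.6, and Aoc1 has 3 high peaks down in LPS and 3 up in Mel+LPS.

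Clca1 encodes a secreted protein of mucous cells that processes mucus. All 11 of its peaks were down in LPS vs Veh, and none was listed in the other 3 tables. From the 5′ to the 3′ end of the gene, the log10 likelihood ratios were 65.4 (exon 2), 53.1 (exon 3), 25.7 (an intron), 53.7 (exon 5), 107 (exon 6), 98.6 (an intron), 126 (exon 10), 104 (exon 11), 207 (exon 12), 222 (exon 13) and 218 (exon 14). The values were thus highest in the last 3 exons, which include the stop codon and the 3′UTR, and lowest in the first part of the gene. All 11 exceeded the 99th percentile of the table, and they included its ranks 1, 2 and 3. Together with Aoc1, Clca1 held 9 of the 12 highest and 11 of the 20 highest of the 6259 peaks.
The Clca1 peaks touched 9 of its 14 exons, by 2 to 490 bases, and 8 of these ran on into the next intron, whereas the median gene with an exon touched by a peak of this table had 1 such exon. Of 2583 genes compared, 2 had at least as many, Clca1 included. The peaks covered 20.3% of the transcript (median of all, 4.20%). A list of 6 other Clca genes was far lower in this comparison: 1 held a peak down in LPS (Clca2, 1.14) and none held a peak up in LPS. Of all protein-coding genes, 28.6% and 25.7% held the centre of such a peak. Clca2 also held a peak up in Mel+LPS at 10.1.

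**Figure D2:**
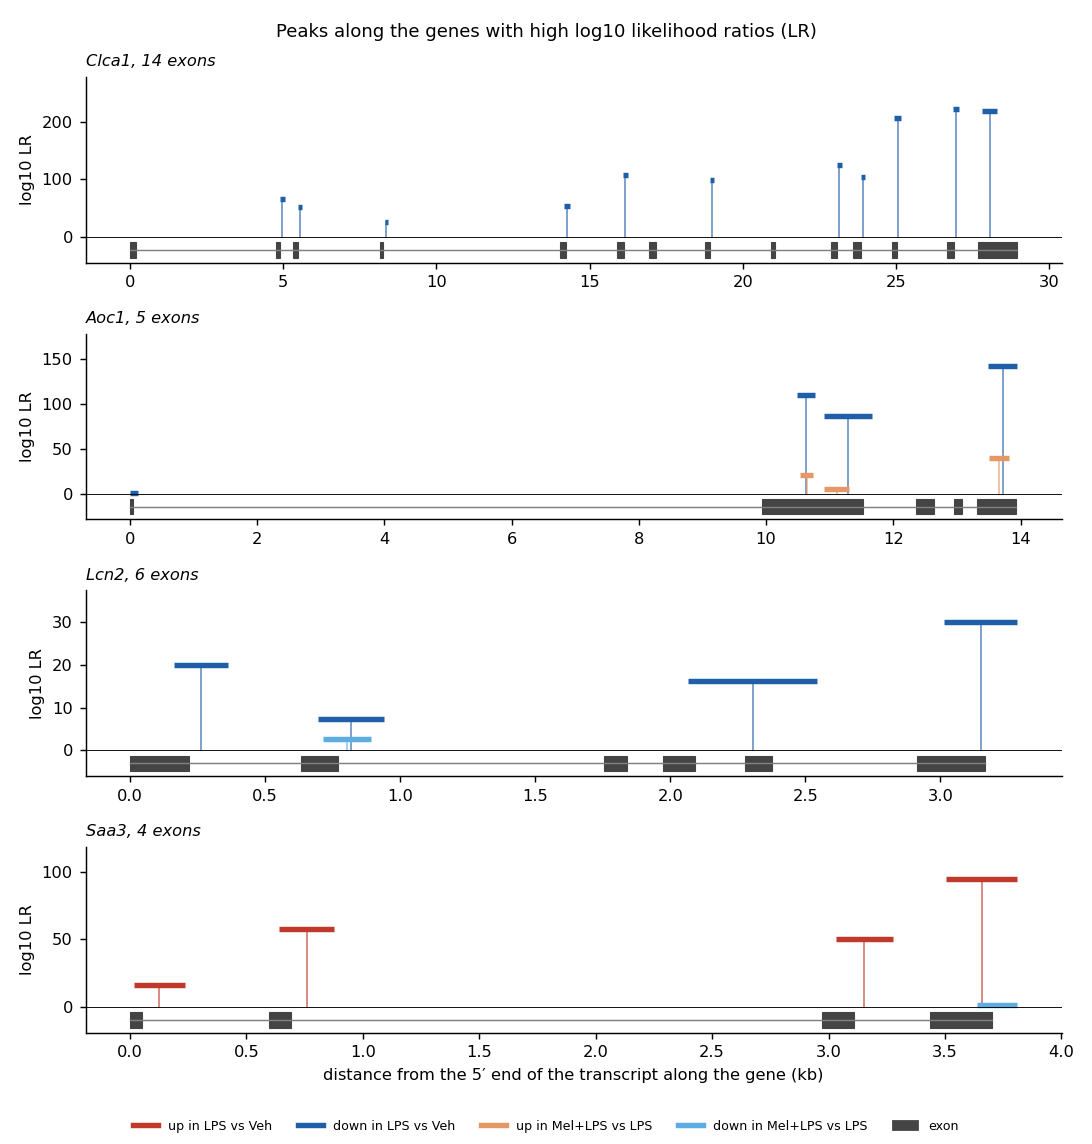
Peaks along Clca1, Aoc1, Lcn2 and Saa3, with the distance from the 5′ end of the transcript (kb) on the x axis, exons as dark boxes, and the log10 likelihood ratio (LR) as the height of each line, whose horizontal cap spans the peak. Each panel has its own scale: in Clca1 the lines reach 222 toward the 3′ end, and in Aoc1 each of the 3 high caps down in LPS stands above a lower cap up in Mel+LPS.

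Aoc1 encodes diamine oxidase, which degrades histamine and putrescine. It had 4 peaks down in LPS vs Veh, with log10 likelihood ratios of 1.05 at the first exon, 110.4 and 86.6 in exon 2 and 143 at the last exon. In Mel+LPS vs LPS, 3 peaks were higher, at 20.9 and 4.99 in exon 2 and at 39.5 at the last exon. Each of these 3 lay wholly within 1 of the 3 high peaks down in LPS, whose ratios were 5.29, 17.4 and 3.61 times as high in that order. The last pair spans the end of the coding sequence and part of the 3′UTR. Aoc1 thus had the same 3 regions listed as lower in LPS and as higher in Mel+LPS, and no peak in the other 2 tables.
Aoc1 was the only one of the 6 genes down in LPS with such an overlap under the same rule of assignment. Of all 5131 genes with a peak down in LPS, 35.9% had a peak that overlapped one up in Mel+LPS. Both comparisons contain the same LPS libraries, and the overlap was not tested. The peaks down in LPS covered 51.6% of the Aoc1 transcript, a share that 6 of the 2583 genes reached, Aoc1 included, and the peaks up in Mel+LPS covered 34.1%, a share that 46 of 5889 genes reached. Of the 11 GGAC sites in the transcript, 8 lay in these peaks.
Other genes of histamine and polyamine metabolism were compared from a list of 11. Peak centres down in LPS lay on 1 of the 3 that could be assessed (Hrh1, a histamine receptor, 3.63), and centres up in LPS on 4 of 11 (Hdc, Hnmt, Hrh4 and Maob), against 28.6% and 25.7% of all protein-coding genes. Hnmt, which methylates histamine inside cells, had the highest ratio of the list up in LPS, 29.1 in an intron. A peak down in Mel+LPS (2.87) lay wholly within that peak, and another (3.44) lay within a second Hnmt peak up in LPS (12.4). The highest Hnmt peak down in Mel+LPS (6.29) covered a further peak up in LPS (6.19) in the same intron. Centres down in Mel+LPS lay on 4 of the 11 genes (21.1% of all genes). Centres up in Mel+LPS lay on 7 of the list (Aoc2 highest, 2.37), against 31.9% of all genes.

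Ltf and Lcn2 encode proteins that withhold iron from bacteria, lactoferrin by binding iron and lipocalin 2 by binding bacterial siderophores. Ltf is known for its strong response to estrogen in the mouse uterine epithelium, and both proteins are also stored in neutrophil granules. Ltf had 8 peaks down in LPS, with log10 likelihood ratios of 3.31 (exon 2), 1.95 (exon 5), 4.68 (exon 10), 1.56 (an intron), 12.2 (exon 13), 7.16 (exon 14), 5.00 (exon 15) and 4.0 (exon 17). The last of these was assigned to Ccrl2, with no mention of Ltf, and that at exon 15 was assigned to Ccrl2 but annotated on Ltf. It also had 4 peaks down in Mel+LPS vs LPS, at 2.55 (exon 3), 1.68 (exon 6), 3.01 (exon 7) and 2.59 (exon 16). No peak of one set overlapped a peak of the other. Ltf was therefore listed as lower in both comparisons, at different exons of the same transcript, and all 4 values of the second set were below the median of their table (3.09).
The 4 Lcn2 peaks down in LPS had ratios of 19.9 (exon 1), 7.42 (exon 2), 16.3 (exons 4 and 5) and 29.9 (exon 6), all above the 90th percentile. That at exon 6 was labelled a promoter peak of 1110008P14Rik, although its centre lies on the last exon of Lcn2. They covered 44.7% of the transcript, a share that 13 of 2583 genes reached. In Mel+LPS vs LPS, 1 Lcn2 peak was lower, at 2.72, and it lay wholly within the exon 2 peak down in LPS.
In a list of 8 other genes of iron and siderophore handling, 1 of the 4 assessed held a peak centre down in LPS. This was Slc40a1, the iron exporter ferroportin, at 14.4, 7.85 and 2.48. Lrp2, an endocytic receptor, was the only 1 of 8 with a centre up in LPS (5.16), and it was again the only one down in Mel+LPS (1.39). Up in Mel+LPS were 5 of 8, with Tfrc, the transferrin receptor, highest at 6.54. The shares of all protein-coding genes were 28.6% down in LPS, 25.7% up in LPS, 21.1% down in Mel+LPS and 31.9% up in Mel+LPS.

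Muc1 and Muc4 encode membrane-bound mucins of the epithelial surface, and Muc1 is known as a barrier to embryo attachment. Muc1 had 2 peaks down in LPS, at 3.33 in exon 2, which encodes the tandem repeats, and at 7.69 in the 3′UTR. It had 2 peaks down in Mel+LPS, at 1.72 elsewhere in exon 2 and at 1.81 in the 3′UTR. The 3′UTR peak down in Mel+LPS lay wholly within the one down in LPS, and that stretch holds 2 GGAC sites (chr3:89233262-89233290 and chr3:89233295-89233323, plus strand), here with the DRACH site in capitals.
Muc1 3′UTR site, upstream: ccctgccctgggGGACActggggcagtta
Muc1 3′UTR site, downstream: tggctctcagaaGGACTggcctggaaaac
Muc4 had 1 peak up in Mel+LPS by the rule, at 7.23 in exon 2 of its 27 exons, which encodes its repeats. A peak down in Mel+LPS (2.36) lay in the Muc4 3′UTR but was assigned to Gm34825. The 2 Muc4 peaks thus pointed in opposite directions in the same comparison, at the 2 ends of a transcript of 11277 bases. Among 13 other mucins and sialomucins, peak centres lay on 1 of 13 up in LPS and 2 of 9 down in LPS, on none up in Mel+LPS and on 1 down in Mel+LPS (Muc20, 3.65). The shares of all protein-coding genes were 25.7%, 28.6%, 31.9% and 21.1% in that order. Emcn was listed in both LPS tables, at 2.01 up and 1.13 down, on different exons.
Lcn2 and Muc1 were 2 of 6 genes down in LPS with a site that was listed as lower again in Mel+LPS, against 1.09% of all 5131 genes. The corresponding count up in LPS and up again in Mel+LPS was 0 of 3, against 3.32% of 9462 genes. The genes were chosen with both comparisons known, and nothing is read from this difference. The ratios of the second comparison were 2.72 and 1.81 at these sites, in the lower part of their table.

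Pigr encodes the receptor that carries dimeric IgA across epithelium into secretions. It had 4 peaks down in LPS, at 1.18 (exon 6), 2.58 (exon 8), 2.01 (exon 9) and 2.99 (exon 11, which holds the 3′UTR), all assigned to the neighbour Fcmr and all below 3. Its 3 peaks up in Mel+LPS had ratios of 3.21 and 3.04 in introns and of 1.67 in the 3′UTR. A peak at 1.52 in the 3′UTR was down in Mel+LPS. The wide 3′UTR peak down in LPS (652 bases) overlapped both, the one listed as higher and the one listed as lower in Mel+LPS. Both directions were thus listed for the Pigr 3′UTR in Mel+LPS, at low ratios. The value of 1.67 was at the 30.8th percentile of peaks up in Mel+LPS, and 1.52 at the 19.7th of those down. Whether the direction differs along the 3′UTR was not tested.
Of 4 genes of immunoglobulin transport, the 2 that could be assessed had no peak down in LPS (28.6% of all protein-coding genes). Igha, the constant chain of IgA that Pigr carries, had 3 peaks up in LPS at 42.8, 28.6 and 24.4, and 3 down in Mel+LPS at 4.60, 3.58 and 2.25. Igha lies on chromosome 12 and could not be assessed as down in LPS, so its direction is not set against that of Pigr. Igha is a gene of plasma cells and not of epithelium.

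C3 is the central component of complement, is made by many cells including the uterine epithelium, and is known to respond to estrogen there. It had 14 peaks up in LPS vs Veh, with a lowest ratio of 1.38, a median of 2.57 and a highest of 7.50, and 13 of them fell under the rule of assignment. The highest lay at exon 2, next came 5.15 across exons 5 to 7 and 3.51 at exon 12. The peaks touched 15 of 41 exons, more than in any other of the 4214 genes compared for this table, but covered only 14.3% of the transcript. C3 thus differed from Clca1 in having many peaks of low ratio. In Mel+LPS vs LPS, 1 C3 peak was lower, at 1.26 in exon 37, and it lay wholly within a peak up in LPS at 3.0.
Of the 14, 7 were labelled promoter, but each of them lay within the C3 gene, at exons 11 to 21, and none lay before its first exon. The table measured 6 of them from the start of a shorter C3 transcript and 1 from Mir6978, which both lie inside the gene. Of the 14, 6 were assigned to Mir6978 or Tnfsf14 and not to C3, 1 of the promoter peaks included.
Complement was the list with the most genes up in LPS. Of 22 complement genes other than C3, 12 held the centre of a peak up in LPS (25.7% of all protein-coding genes) and 10 the centre of a peak down in Mel+LPS (21.1%). The 12 included the subunits and proteases of C1 (C1qa, C1qb, C1qc, C1ra and C1s1) and the receptors C3ar1 and C5ar1, and Cd55 was the highest down in Mel+LPS, at 3.99. Down in LPS were 4 of 13 (28.6% of all protein-coding genes), and up in Mel+LPS were 6 of 22 (31.9%). The last 2 counts were near the share of all genes. The shares of all protein-coding genes include genes without a peak in any comparison. By assignment, 12 of the 22 had a peak up in LPS and 8 a peak down in Mel+LPS. Among genes with a peak in any comparison, these shares were 51.1% and 43.3%. Nothing is therefore read from any of the complement counts.

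**Figure D3:**
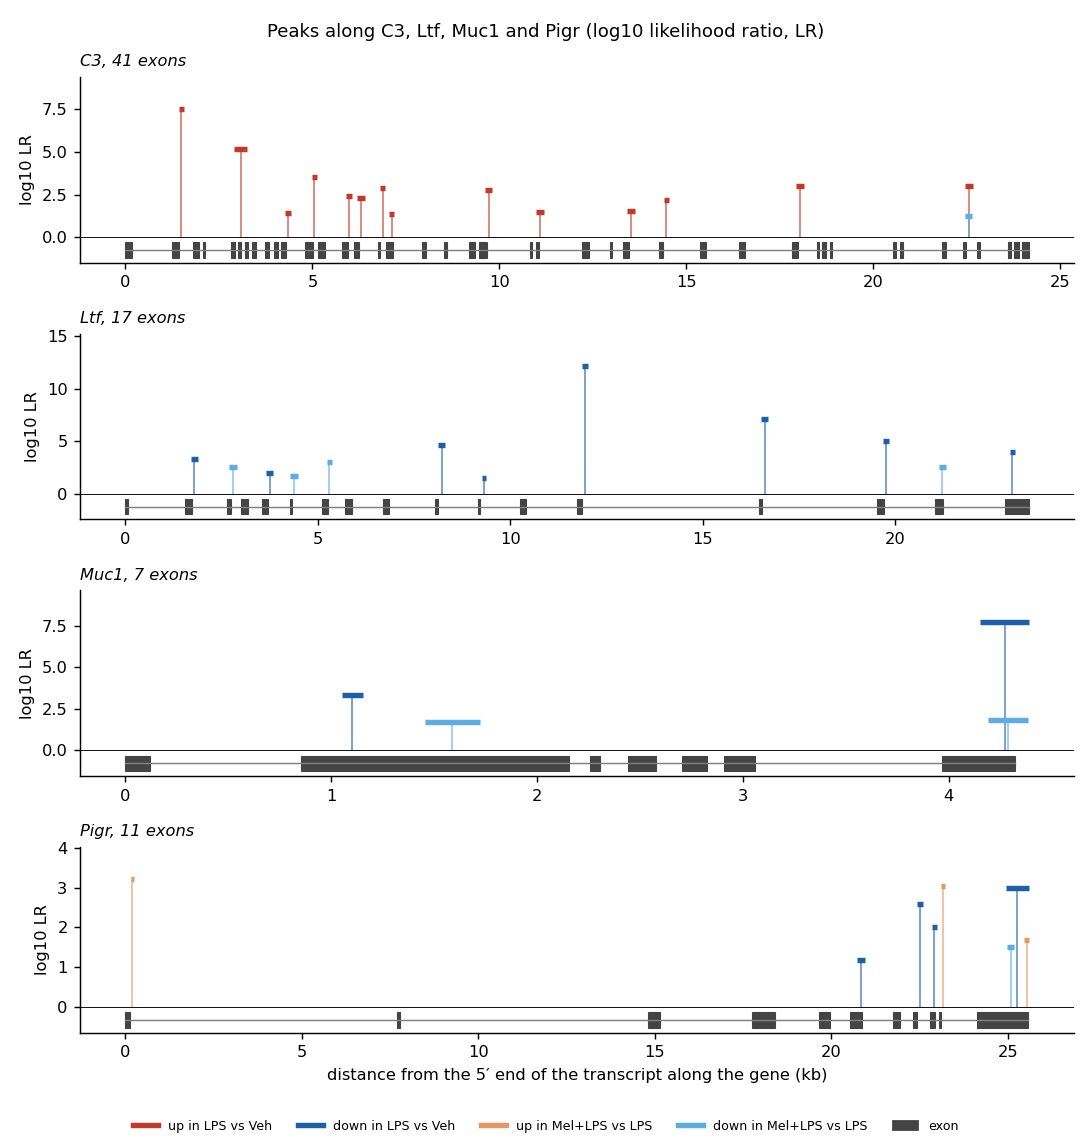
Peaks along C3, Ltf, Muc1 and Pigr, drawn as for Clca1, with the distance from the 5′ end of the transcript (kb) on the x axis and the log10 likelihood ratio (LR) as line height on a separate scale per gene. C3 shows 14 peaks up in LPS spread over the gene with a maximum of 7.50, and Ltf shows 8 down in LPS and 4 down in Mel+LPS that do not overlap.

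Saa3 is the serum amyloid A gene that inflamed tissues express locally, whereas Saal1 (serum amyloid A like 1) is not a serum amyloid A gene itself and is its neighbour on chromosome 7. Saa3 had 4 peaks up in LPS vs Veh, 1 at each of its 4 exons, with ratios of 16.1, 57.7, 50.3 and 94.6 from exon 1 to exon 4. All 4 were above the 99th percentile of their table, and 3 of them were among its 12 highest peaks. They covered 65.9% of the transcript, a share that 4 of 4214 genes reached. In Mel+LPS vs LPS, a peak at 1.93 was lower, within the exon 4 peak and with the same 3′ boundary, so that the ratio of the higher to the lower was 49.1.
The 2 peaks at exons 3 and 4 and the one down in Mel+LPS were assigned to Saal1 as promoter peaks. None of the 3 peaks assigned to Saal1 lay on Saal1: the centres of the first 2 lay within Saa3, and the third ran across the 3′ end of Saa3, with 66 of its 175 bases on the last Saa3 exon. The Saal1 result of the tables is thus a result on Saa3. Saal1 itself had 4 peaks in its 3′UTR, all assigned to Tph1, with ratios of 1.43 and 1.60 down in LPS and of 3.88 and 1.07 up in Mel+LPS. Each of the first 2 overlapped 1 of the latter. Saa3 and Saal1 were therefore listed in opposite directions in both comparisons once peaks were placed by position. Saa3 has close relatives in the genome, and how reads that match several of them were counted is not stated, so the share of the Saa3 values that came from a relative is unknown.
By the rule of assignment, 2 of the 3 genes up in LPS (C3 and Saal1, with the site on Saa3) had a peak that overlapped one down in Mel+LPS, against 47.5% of all 9462 genes up in LPS. The ratios down in Mel+LPS were 1.26 and 1.93. These comparisons also share the LPS libraries.
Among 24 other acute-phase genes, centres lay on 5 up in LPS, 4 of 18 down in LPS, 8 up in Mel+LPS and 3 down in Mel+LPS. The shares of all protein-coding genes were 25.7%, 28.6%, 31.9% and 21.1% in that order. The highest up in LPS was Cp, ceruloplasmin, at 9.45. Down in LPS, the highest was Fga, the fibrinogen alpha chain, at 40.2, and up in Mel+LPS it was Ptx3, a pentraxin, at 8.59. Ptx3 and Fga were each listed as lower in LPS and as higher in Mel+LPS, while Crp was listed as higher in LPS (5.02) and lower in Mel+LPS (2.28). The acute-phase list thus held genes of either direction, and nothing is read from its counts, which were near or below the shares of all genes. Of 13 antimicrobial and protease inhibitor genes, 2 held centres up in LPS, 0 of 7 down in LPS, 5 up in Mel+LPS and 1 down in Mel+LPS. The shares of all genes are those given for the acute-phase list. The serine proteases Prss28 and Prss29, which implantation-stage glands secrete, led the antimicrobial and inhibitor genes up in Mel+LPS at 38.0 and 17.1.

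The annotation of the 62 peaks was set against their position. For 40 peaks the centre lay within the gene to which the table assigns it (64.5%, against 47.4% of all peaks). By table, this was so for 4 of 17 up in LPS, 25 of 30 down in LPS, 5 of 6 up in Mel+LPS and 6 of 9 down in Mel+LPS. The centre lay within 1 of the 10 genes for 61 of 62, and the exception is the Saa3 peak down in Mel+LPS named above. Counted by position, centres down in LPS lay on 7 of 8 genes (28.6% of all protein-coding genes), up in LPS on 2 of 10 (25.7%), up in Mel+LPS on 4 of 10 (31.9%) and down in Mel+LPS on 6 of 10 (21.1%). The annotation named an exon for 40 peaks (64.5%, all peaks 39.5%), a promoter for 10 (16.1%, all peaks 7.54%), an intron for 6, the 3′UTR for 5 (8.06%, all peaks 20.6%) and the 5′UTR for 1. All 10 promoter peaks lay on C3 or Saa3.
Most peaks labelled exon had their centre in the following intron. On the GENCODE transcripts, 19 of 62 centres (30.6%) lay on an exon, 14 in the coding sequence and 5 in the 3′UTR, although 56 peaks touched an exon of the gene. Of the 54 peaks that touched 1 exon, 8 lay inside it and 46 ran past its 3′ end, by 17 to 188 bases (median 146), and none ran past its 5′ end. In all 4 tables, 9439 of the 9647 peaks that ran past 1 end of an exon ran past the 3′ end (97.8%). After a move of each peak by 100 bases toward the 5′ end, 57 of 62 centres lay on an exon, and over all peaks the share rose from 37.0% to 58.5%. Positions are therefore given above as the exon a peak touches. Peaks given as in an intron touched no exon. Among them, the Clca1 peak at 98.6 lay directly past the 3′ end of exon 8. The Pigr peaks in introns lay just past the 3′ ends of exons 1 and 10. The cause of the offset was not tested.

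**Figure D4:**
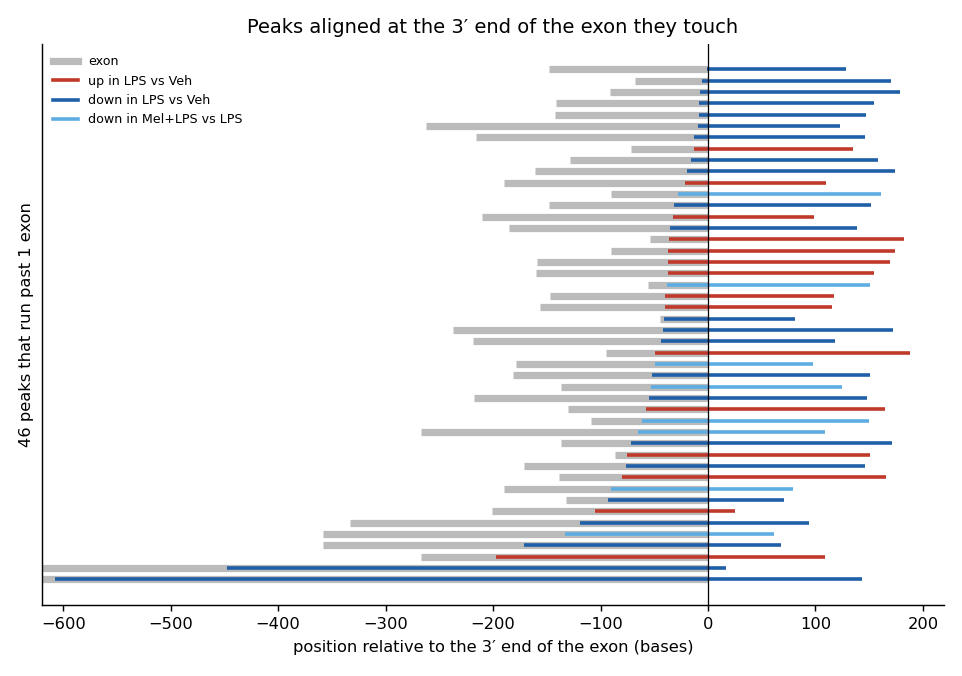
The 46 peaks that touch 1 exon of a gene and run past its end, aligned at the 3′ end of that exon (0 on the x axis, in bases), with the exon in grey and the peak coloured by table. Each peak begins inside the exon and ends beyond it, by at most 188 bases. The exons of the 2 lowest lines are longer than the axis and are drawn only in part.

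DRACH sites were about as dense in these peaks as in others. The 19 peaks with the centre on an exon held 118 sites in 4567 exonic bases (25.8 per 1000 bases), and each held at least 1. Over all 15152 such peaks there were 24.8 per 1000 bases, and 97.5% held at least 1, so that the presence of the motif separates few peaks. For GGAC, the values were 4.38 and 5.54 per 1000 bases, with a site in 63.2% and 60.2% of the peaks. The motif was read on the transcript strand and GGAC sites are in part DRACH sites. Of the sequences printed above, exon 13 of Clca1 had 8 DRACH sites and 2 GGAC. The Aoc1 exon 2 peak had 5 and 2, and the coding part of Aoc1 exon 5 had 6 and 3. The coding part of Saa3 exon 4 had 4 and 2, Lcn2 exon 2 had 2 and 0, and C3 exon 37 had 0 and 1. Apart from the Aoc1 exon 2 peak, these counts are for the printed stretch and not for the peak. The Clca1 peak had 43 bases on exon 13, with 1 DRACH site and 1 GGAC, and the Saa3 exon 4 peak up in LPS had 2 and 0.

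The genes with the most similar pattern were sought for Clca1, Aoc1 and Saal1 among 10186 genes, by the Euclidean distance of log2(ratio + 1) over the 4 tables, with the highest ratio per gene and table and 0 where none. Nearest to Clca1 were Sprr2b (174 down in LPS, distance 0.34), Sprr1a (58.0, distance 1.92) and Tmprss11c (51.9, distance 2.07), all absent from the other 3 tables. The last 2 were thus much less close than Sprr2b. The Sprr genes encode small proline-rich proteins of squamous and stressed epithelia. Nearest to Aoc1 were Gm5617 (58.3 down in LPS and 55.8 up in Mel+LPS), Tubb3 (94.6 and 7.81) and Prss12 (27.6 and 18.2). Their distances were 1.37, 2.28 and 2.57. Nearest to Saal1 were Cxcl13, a B cell chemokine (53.7 up in LPS and 1.59 down in Mel+LPS), Gm19457 (60.3 and 4.30) and Saa3 itself (57.7). Here the distances were 0.82, 1.07 and 1.70. With 4 values per gene, such likeness is a description of the tables.

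Markers of the cell types of the uterus were read in the same tables, since the RNA came from the whole organ. Of 14 epithelial markers, peak centres down in LPS lay on 3 of the 7 assessed (among them Elf3, at most 20.9, and Cdh1, 15.9), against 28.6% of all genes, and centres up in LPS lay on 1 of 14 (Foxa2, 2.73). Down in Mel+LPS were 7 of 14, among them Krt7, Krt8, Krt18 and Krt19 (Krt19 highest, 5.24), and up in Mel+LPS were 2 of 14 (Cdh1 highest, 11.8). Some epithelial markers were thus listed as lower in LPS beside Clca1, Aoc1, Ltf, Muc1 and Lcn2, and as lower in Mel+LPS beside Ltf, Muc1 and Lcn2. Epcam, Cldn3, Cldn7 and Esrp1 had no peak in any table. Of 12 neutrophil markers, centres up in LPS lay on 3 (Csf3r, 3.02, Cxcr2 and Retnlg, against 25.7% of all genes), centres down in LPS on 0 of 8, up in Mel+LPS on 1 and down in Mel+LPS on 0. S100a9, Mpo, Elane, Camp, Ly6g, Mmp8 and Mmp9 had no peak in any table. S100a8 (5.11) and Ngp (1.95) were assigned peaks down in LPS that lay outside their bodies. The share of neutrophil markers up in LPS was close to that of all genes, and nothing is read from it.
Of 6 stromal markers, 5 had a centre up in Mel+LPS (Col1a1 highest, 11.6), 1 of 3 down in LPS (Col1a2, 3.44) and none in the other tables, and Vim (3.99) was assigned a peak down in Mel+LPS that lay outside its body. Of 5 smooth muscle markers, all 5 had a centre up in Mel+LPS (Myh11 highest, 5.35), 3 of 3 down in LPS (Des highest, 4.75), and 1 each up in LPS and down in Mel+LPS (Myh11, 2.15 and 19.4). The shares of all genes were 25.7% up in LPS, 28.6% down in LPS, 31.9% up in Mel+LPS and 21.1% down in Mel+LPS. The marker lists did not share 1 direction. The part of the share of each cell type in the values of the 10 genes was not tested.

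**Figure D5:**
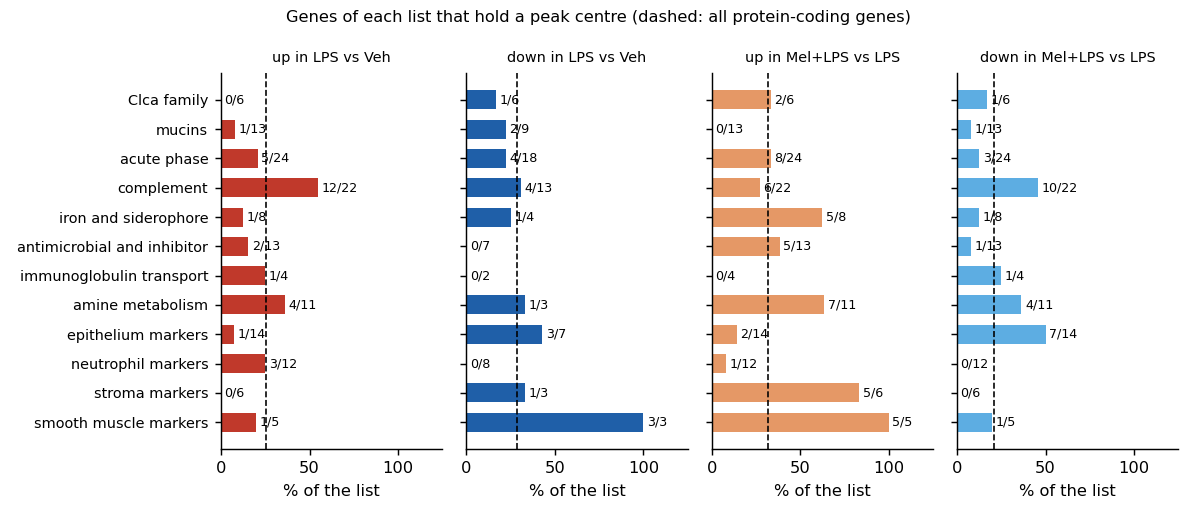
Percent of the genes of each list (rows; the first 8 are gene lists and the last 4 cell type markers) on which the centre of a peak lies, for each of the 4 tables, with the count of genes beside the bar. The dashed line is the percent of all protein-coding genes (25.7, 28.6, 31.9 and 21.1 from left to right). That base includes genes without any peak, so a bar above it is not read as an enrichment. Among the bars above it are complement up in LPS (12 of 22) and down in Mel+LPS (10 of 22), and epithelial markers down in Mel+LPS (7 of 14). Smooth muscle markers down in LPS (3 of 3) are above it too. Up in Mel+LPS, so are smooth muscle (5 of 5) and stroma (5 of 6) markers, amine metabolism (7 of 11) and iron and siderophore genes (5 of 8).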

How the data were processed

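Uterine RNA of 3 treatments (Veh, LPS and Mel+LPS) was studied on day 5 of pregnancy, with 3 input and 3 m6A libraries each. Per the study's methods and labels, Fastp trimming was followed by STAR 2.5.2a alignment, exomePeak2 peak calling on IP and input, a MACS2 3.4 step for differential peaks and ChIPseeker 1.22.1 annotation. The score that the authors deposited for each peak is a log10 likelihood ratio of the comparison, without replicate values, so nothing was tested and depth is unknown.

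A peak belonged to a gene where the gene was assigned to it or named in its annotation. Members and lists were chosen with earlier results of these data known. The text names all 10 genes, the genes that hold or were assigned their peaks, the highest gene of each list and table, and the 3 genes nearest in pattern to Clca1, Aoc1 and Saal1; other list members named were chosen after their values were seen, and some list genes are counted but not reported here by name. Gene bodies came from RefSeq (GRCm38.p6), and exons and sequences from 1 GENCODE M21 transcript for each of 21842 protein-coding genes. Peaks of 2 tables were at the same site where they shared at least 1 base. Values of list genes come from peaks assigned to them or annotated on them, and counts of list genes from peak centres in their bodies. Counts of exon positions were tested on simulated data (200 made transcripts). Alternatives were stricter scores, other rules of position and overlap, another motif and a move of the peaks. Python 3.11.15, numpy 2.4.6, pandas 2.3.3, scipy 1.17.1 and matplotlib 3.10.9 were used.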

Additional observations from a re-analysis of the deposited data

How the results depend on the processing

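No paired analysis was possible because the tables hold 1 value per peak and comparison and none per replicate, and for the same reason leaving out each replicate could not be run. Of the genes with a peak down in Mel+LPS, 5 became 1 at a score of at least 3 and 0 at a score of at least 6, and sites down in LPS and up in Mel+LPS, 6 with peaks taken by position, became 3 at a score of at least 3 in both tables. Sites up in LPS and down in Mel+LPS then became 0, from 2. Peaks on their own gene were 40 by the centre and 15 with the centre on an exon. Alternatives chosen after seeing the data gave 56 peaks with any base on an exon and 57 with the centre on an exon after a move of 100 bases toward the 5′ end, whatever gene was assigned. Exon peaks were 40 by the annotation, 14 by the centre and 10 with the highest peak per gene and table. The DRACH density relative to all exon peaks was 1.04, and that of GGAC was 0.791. The median percentile of peaks up in LPS was 51.2 over all peaks and 99.9 over the highest per gene and table, since the many C3 peaks then count once. The other 29 values kept within 1.5 times or within their range. Depth, replicate spread and RNA level could not be weighed with these tables.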
